A study of Rattus norvegicus with 6 samples.

Results

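RNA levels of 10 cyclic nucleotide phosphodiesterases, Pde1a, Pde1b, Pde1c, Pde3a, Pde3b, Pde4b, Pde4d, Pde5a, Pde7b and Pde10a, were compared between the thoracic aortae of SHR and WKY rats. The genes were chosen by name, and each was measured by 1 probe set (a group of short array probes that reports 1 transcript) whose platform annotation names that gene alone. They are 10 of 28879 probe sets in the table, and 10 of 18166 genes that have a probe set of their own. SHR, the spontaneously hypertensive rat, was bred for raised blood pressure, and WKY, the Wistar-Kyoto rat, is its normotensive relative and usual control. All rats were 24 weeks old and received no treatment beyond a tail measurement of blood pressure, and the aortae were cleared of fat and connective tissue before freezing. Each strain had 3 Affymetrix Rat Gene 2.0 ST arrays, 6 in all. Whether every array came from its own animal is not stated in the labels, so the p-values cover only the variation among these samples, part or all of which may be technical. The samples are whole pieces of aorta, in which fewer cells of a type and less RNA per cell cannot be told apart.

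Phosphodiesterases break down cyclic AMP and cyclic GMP, the second messengers through which adrenaline, prostacyclin, nitric oxide and natriuretic peptides relax vascular smooth muscle. The families differ in which messenger they cut and in what controls them. Pde1 enzymes are switched on by calcium and calmodulin and cut both messengers. Pde3 enzymes cut mainly cyclic AMP and are inhibited by cyclic GMP. Pde4 and Pde7 enzymes are specific for cyclic AMP, Pde5a is specific for cyclic GMP, and Pde10a cuts both.

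Levels are log2 values after RMA (background correction, normalization between arrays and summary per probe set), so a difference of 1 is a ratio of 2. All 10 probe sets lay above the level required for testing, the 25th percentile of the mean over the 6 arrays, as did 21659 probe sets in all. The arrays gave no detection call. Their medians lay between 2.29 and 2.52, and a level in that range or under it is not shown to lie above background. Some arrays were unusual. The values of WKY replicate 3 were compressed: their SD was 2.12, where the other arrays had 2.22 to 2.27, and limma's fitted array weight was lowest there, at 0.22. SHR replicate 1 had nerve markers (7 genes tested) at a mean of 5.14, against 2.29 to 2.80 on the other 5 arrays. Th, Dbh, Ddc, Chrna3 and Prph, genes of sympathetic nerve cells, stood out there. S100b stood at 6.57, against 6.05 on WKY replicate 1, and Sox10 at 3.29, against 3.47 on WKY replicate 3. WKY replicate 1 had striated muscle markers (8 genes tested) at a mean of 4.09, against 3.09 to 3.36 on the other 5 arrays. Its brown adipocyte markers (8 genes tested) had a mean of 5.61, against 3.26 to 4.56. Tnni2 and Myl1 of the former list and Slc27a2, Dio2 and Ppargc1a of the latter were not highest there.

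No phosphodiesterase passed the test of the strains. At a limma adjusted p under 0.05 the count was 0 of 10 genes, where 0.0693% of all tested probe sets passed, 15 in number. At an unadjusted limma p under 0.05 there were 3 genes, Pde1b, Pde4d and Pde4b, all lower in SHR. Of all tested probe sets 5.55% were under that threshold, 2.54% lower in SHR and 3.01% higher. In 4 genes, Pde1b, Pde4d, Pde4b and Pde5a, every SHR array lay below every WKY array, as in 5.61% of all tested probe sets. In the other direction 0 genes were separated, against 6.48% of probe sets. The other 6 genes overlapped between the strains. The differences ran from -0.83 for Pde1b to 0.38 for Pde7b, 6 below 0 and 4 above. Their median was -0.14, against -0.01 over all tested probe sets, and the median size of the difference was 0.34, against 0.15. The genes were picked with earlier results on these arrays known, so these counts describe the list and give it no test.

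**Figure D1:**
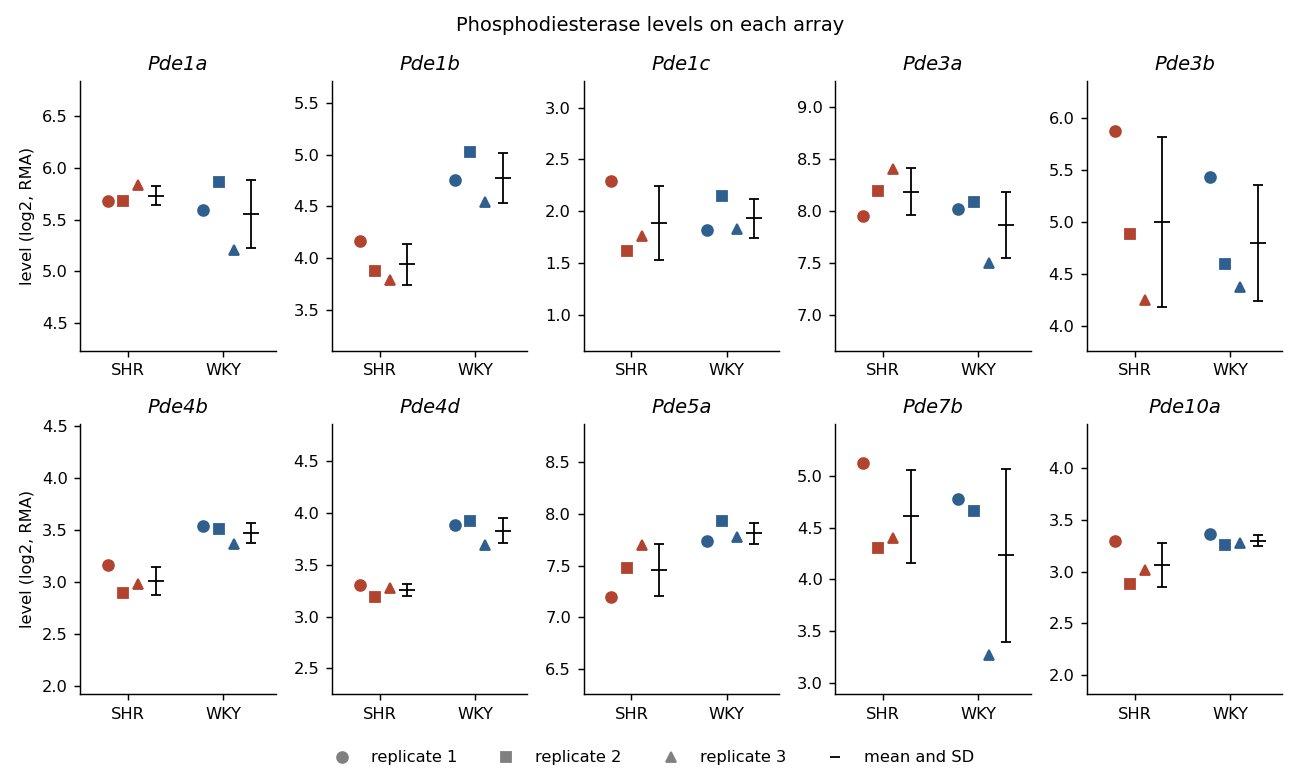
Level of each phosphodiesterase (log2, RMA) on each of the 6 arrays, SHR left of WKY, with symbols for the replicates and bars for mean and SD; every panel spans the same number of log2 units around its own gene. The SHR arrays lie below all WKY arrays for Pde1b, Pde4b, Pde4d and, by the narrow margin of 0.04, Pde5a, while Pde3b and Pde7b spread most within a strain.

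Among the calcium-activated enzymes, Pde1b had the largest difference of the 10 genes. It is known from brain, where it is abundant in the striatum, and from cells of the immune system. Its level was 4.17, 3.87 and 3.79 on SHR replicates 1 to 3, against 4.75, 5.03 and 4.55 on WKY replicates 1 to 3. The highest SHR array lay 0.38 below the lowest WKY array. The means were 3.94 ± 0.20 in SHR and 4.78 ± 0.24 in WKY (SD, 3 arrays each), a difference of -0.83 ± 0.18 (SE), or a ratio of 0.562 with a 95% interval from 0.416 to 0.758. The unadjusted limma p was 0.00242, rank 123 of all tested probe sets, and the limma adjusted p was 0.426. The gene therefore did not pass, although its strains were separated.

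Pde1a, a member of the same family found in vascular smooth muscle, was nearly level between the strains. It lay at 5.67, 5.68 and 5.83 on the SHR arrays and at 5.59, 5.86 and 5.21 on the WKY arrays. WKY replicate 2 lay just above the SHR arrays and WKY replicate 1 just below them, and WKY replicate 3 was the lowest. The difference was 0.17 ± 0.19 (SE; limma adjusted p = 0.929), with a 95% interval from -0.28 to 0.63, and without WKY replicate 3 it was 0.00. Pde1c, which is tied to proliferating smooth muscle in human arteries, lay at 2.29, 1.62 and 1.76 in SHR and at 1.82, 2.15 and 1.83 in WKY. These levels are within or below the range of the array medians, so its difference of -0.04 (95% interval from -0.54 to 0.46) is between levels not shown to lie above background. The SHR array that stood highest for Pde1c was replicate 1. Without that array the difference was -0.24.

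Of the Pde4 family, Pde4d and Pde4b had separated strains without passing the test, with lower levels in SHR. The other family genes tested, Pde4a and Pde4c, overlapped, with differences of -0.11 and -0.27 (limma adjusted p of 0.947 and 0.923). Pde4 enzymes are the targets of rolipram and roflumilast, and they limit cyclic AMP near the receptors and anchoring proteins that bind them. Pde4d lay at 3.31, 3.19 and 3.28 on the SHR arrays, against 3.88, 3.92 and 3.69 on the WKY arrays. The spread within SHR was 0.12, and a gap of 0.38 separated the strains. The means were 3.26 ± 0.06 in SHR and 3.83 ± 0.12 in WKY (SD), a difference of -0.57 ± 0.14 (SE) and a ratio of 0.673 (95% interval from 0.535 to 0.846). The unadjusted limma p was 0.00439 and the limma adjusted p 0.496.

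Pde4b, the form best known from white blood cells, lay at 3.16, 2.90 and 2.97 in SHR and at 3.54, 3.51 and 3.36 in WKY. The groups did not overlap, and the gap was 0.20. The means were 3.01 ± 0.14 in SHR and 3.47 ± 0.10 in WKY (SD), a difference of -0.46 ± 0.15 (SE), a ratio of 0.726 (95% interval from 0.572 to 0.920), an unadjusted limma p of 0.0149 and a limma adjusted p of 0.730. Set against the median of its own array, Pde4b stood 0.58 to 0.83 above it in SHR and 0.85 to 1.26 in WKY, and Pde4d 0.87 to 0.98 above it in SHR and 1.17 to 1.61 in WKY.

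Pde4b and Pde4d make several forms of their enzymes from separate starts of transcription, and cyclic AMP itself can induce some of these forms through the cyclic AMP response element (CRE). The single probe set of each gene does not tell the forms apart. RefSeq, on build GRCr8, gives 2 start sites for Pde4b and 5 for Pde4d, and 7 of the 10 genes have at least 1 of the 13 windows examined (Pde1b, Pde3b and Pde7b have none in the table). The 250 bases before each start were searched on both strands for the full CRE, TGACGTCA, and for its core, TGACG, which lies within the full element. The full element was in 0 of the 13 windows, as in 1.59% of 33469 windows of the same length before all starts in the table. The core was in 3 of the 13, against 18.2% of all windows. Those 3 are starts 3 and 4 of Pde4d and start 1 of Pde10a, numbered along each gene's strand. The CArG box, the element bound by serum response factor in smooth muscle genes, was in 0 of the 13, against 1.50% of all windows. The 3 windows that hold a core, with 1 Pde4b window and the Pde5a window beside them as windows without one, are printed 5′ to 3′ as 250 bases ending just before the start, with capitals for the CRE core on either strand.
Pde4d start 3, chr2:42592499-42592748, plus strand: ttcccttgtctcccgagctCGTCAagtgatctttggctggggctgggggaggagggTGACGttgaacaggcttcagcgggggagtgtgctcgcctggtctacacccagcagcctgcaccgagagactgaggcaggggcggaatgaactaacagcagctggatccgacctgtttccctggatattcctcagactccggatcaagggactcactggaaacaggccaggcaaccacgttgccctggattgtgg
Pde4d start 4, chr2:42767367-42767616, plus strand: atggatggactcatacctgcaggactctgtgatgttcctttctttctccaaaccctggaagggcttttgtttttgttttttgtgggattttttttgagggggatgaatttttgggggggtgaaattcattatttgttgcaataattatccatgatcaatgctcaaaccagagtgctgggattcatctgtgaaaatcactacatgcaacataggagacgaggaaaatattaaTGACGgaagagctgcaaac
Pde10a start 1, chr1:54765669-54765918, minus strand: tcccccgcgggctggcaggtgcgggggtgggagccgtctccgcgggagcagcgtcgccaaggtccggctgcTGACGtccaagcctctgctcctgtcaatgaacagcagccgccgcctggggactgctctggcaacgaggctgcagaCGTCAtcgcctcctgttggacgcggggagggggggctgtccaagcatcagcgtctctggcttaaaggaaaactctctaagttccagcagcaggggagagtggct
Pde4b start 2, chr5:122222323-122222572, plus strand: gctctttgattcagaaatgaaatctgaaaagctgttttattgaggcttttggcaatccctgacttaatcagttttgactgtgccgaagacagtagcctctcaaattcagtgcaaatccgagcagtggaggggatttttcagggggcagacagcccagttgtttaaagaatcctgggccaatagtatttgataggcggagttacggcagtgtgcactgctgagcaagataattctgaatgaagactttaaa
Pde5a start, chr2:213543776-213544025, plus strand: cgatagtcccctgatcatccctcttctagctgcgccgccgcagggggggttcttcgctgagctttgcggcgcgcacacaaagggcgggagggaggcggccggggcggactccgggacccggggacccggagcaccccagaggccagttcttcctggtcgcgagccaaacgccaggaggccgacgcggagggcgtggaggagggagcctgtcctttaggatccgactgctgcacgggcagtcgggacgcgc
In the window of Pde4d start 3 the cores begin 231 bases before the start (as CGTCA, on the opposite strand) and 194 bases before it, and in that of start 4 the core begins 19 bases before it. In that of Pde10a start 1 they begin 179 bases before it and, as CGTCA on the opposite strand, 104 bases before it. A match is a run of letters and not a measured binding site, and these arrays hold no data on binding.

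Pde5a, the enzyme that sildenafil inhibits, removes the cyclic GMP made in response to nitric oxide and is a typical gene of vascular smooth muscle. It lay at 7.20, 7.48 and 7.70 on the SHR arrays, against 7.73, 7.93 and 7.77 on the WKY arrays. SHR replicate 3 came within 0.04 of WKY replicate 1, and after centring each array on its median the strains overlapped. The means were 7.46 ± 0.25 in SHR and 7.81 ± 0.10 in WKY (SD), a difference of -0.35 ± 0.17 (SE; limma adjusted p = 0.923), and the 95% interval of the ratio, from 0.592 to 1.03, includes 1. Without SHR replicate 1 the difference was -0.22.

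The Pde3 genes lay on the other side of 0, with overlapping strains. Pde3a, the target of milrinone and cilostazol in heart, platelets and vascular smooth muscle, lay at 7.96, 8.20 and 8.41 in SHR and at 8.02, 8.09 and 7.50 in WKY. WKY replicate 3 was the lowest array. The difference was 0.32 ± 0.21 (SE; limma adjusted p = 0.923; 95% interval from -0.17 to 0.81), and 0.14 without WKY replicate 3. Pde3b, through which insulin restrains fat breakdown in adipocytes, lay at 5.87, 4.88 and 4.25 in SHR and at 5.43, 4.59 and 4.38 in WKY. Each strain held both high and low arrays, and the difference of 0.20 had a 95% interval from -0.83 to 1.23, too wide to place the strains in order. It turned to -0.24 without SHR replicate 1 and to -0.01 without WKY replicate 3.

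Pde7b, a cyclic AMP enzyme that rolipram does not inhibit, lay at 5.12, 4.30 and 4.40 in SHR and at 4.77, 4.66 and 3.27 in WKY. Its difference of 0.38 (95% interval from -0.61 to 1.36; limma adjusted p = 0.930) rested on WKY replicate 3 and was -0.11 without it. Pde10a, best known from the striatum of the brain, lay at 3.30, 2.88 and 3.02 in SHR and at 3.36, 3.26 and 3.28 in WKY. Only SHR replicate 1 reached the WKY range. The difference was -0.23 ± 0.16 (SE; limma adjusted p = 0.923; 95% interval from -0.61 to 0.14), -0.35 without SHR replicate 1 and -0.14 without SHR replicate 2.

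**Figure D2:**
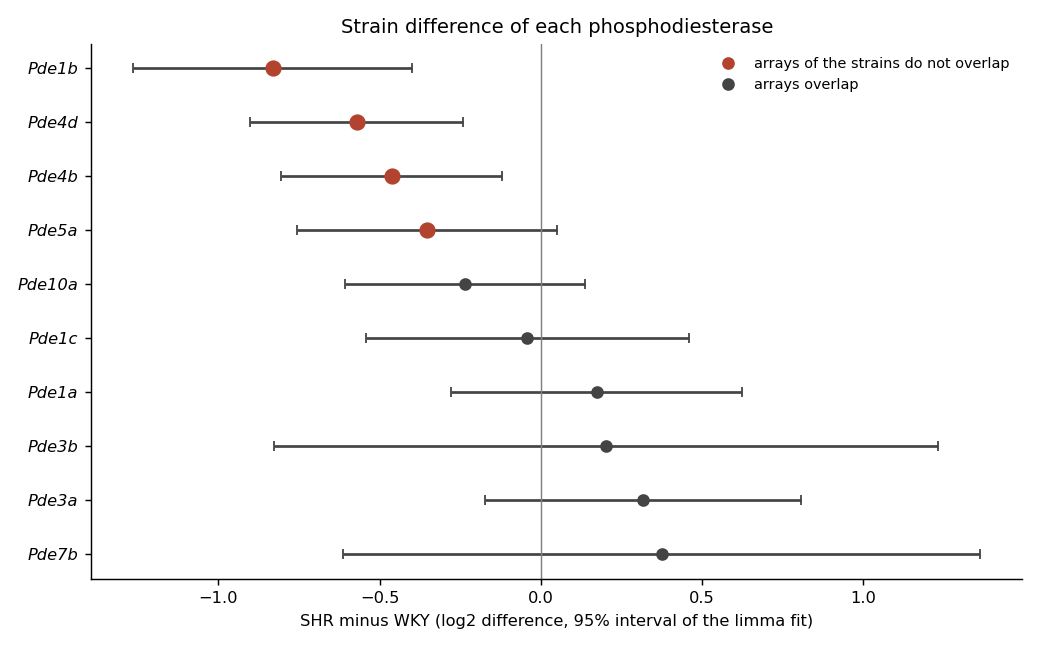
Difference of SHR minus WKY (log2) for each phosphodiesterase with the 95% interval of the limma fit; coloured points mark genes whose SHR and WKY arrays do not overlap. The intervals of Pde1b, Pde4d and Pde4b lie below 0 before adjustment for the number of probe sets, and the widest are those of Pde3b and Pde7b.

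Leaving out each array in turn divided the genes into those whose difference held its sign and those whose difference did not. Pde1b ranged from -0.95 to -0.71 over the 6 fits, Pde4d from -0.64 to -0.53 and Pde4b from -0.54 to -0.41. Pde5a ranged from -0.47 to -0.22 and Pde10a from -0.35 to -0.14. Pde3a stayed above 0, from 0.14 to 0.43, and Pde1a ranged from 0.00 to 0.33, at practically no difference without WKY replicate 3. Pde1c, Pde3b and Pde7b took both signs, from -0.24 to 0.094, from -0.24 to 0.58 and from -0.11 to 0.64. None of the 10 genes passed in any of these fits.

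**Figure D3:**
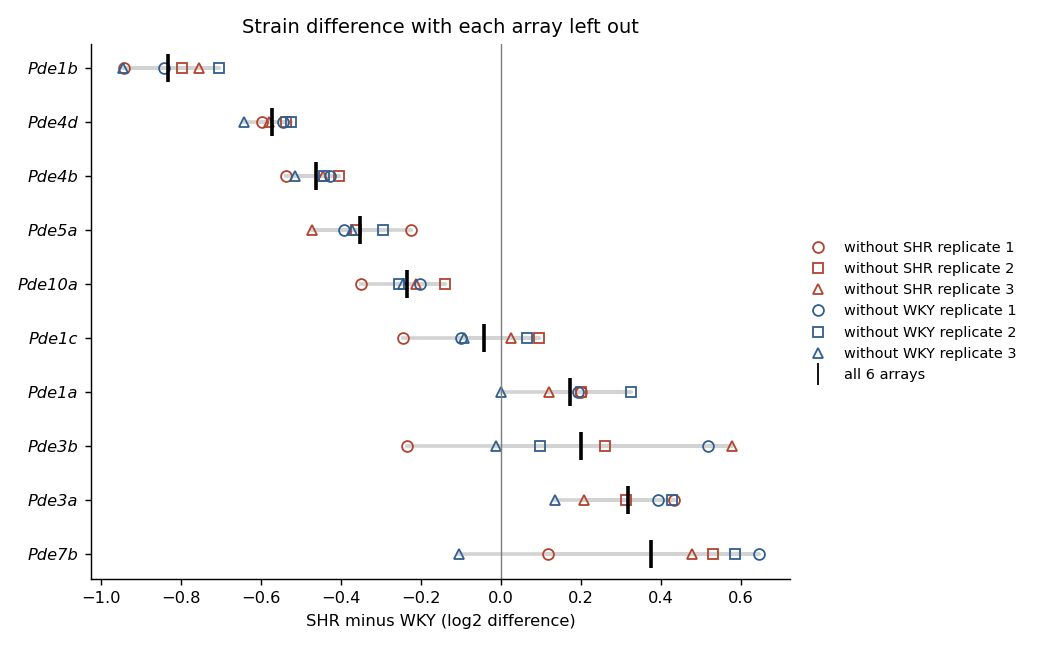
Difference of SHR minus WKY (log2) for each phosphodiesterase with all 6 arrays (black bars) and with each array left out in turn (open symbols, coloured by the strain of the missing array). Pde1b, Pde4d, Pde4b, Pde5a and Pde10a stay below 0 in all 6 fits, while Pde1c, Pde3b and Pde7b lie on both sides of 0.

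The levels of Pde1b, Pde4b and Pde4d ran in parallel over the 6 arrays. Across 14821 other protein-coding genes, Pde4b had the 12th highest Pearson correlation with Pde1b (0.97) and Pde4d the 10th (0.97), and the correlation of Pde4b with Pde4d was 0.97. Pde5a was less alike, at 0.60 with Pde1b, 0.73 with Pde4d and 0.56 with Pde4b. Pde1a, of the same family as Pde1b, had -0.15 with it. The genes most like Pde1b were Nudt2 (0.99), Tle5 (0.99) and Trpm3, a cation channel (0.98). Those most like Pde4d were Adamts15, a matrix protease (0.99), Lrsam1, a ubiquitin ligase (0.99), and Epha4, an ephrin receptor (0.99). Those most like Pde4b were Tmem170b (0.99), Limch1, an activator of non-muscle myosin (0.99), and the transcription factor Gtf2i (0.99). These 9 genes had differences from -0.97 to -0.24 and none passed (limma adjusted p from 0.207 to 0.923). The correlations describe 6 arrays that share a difference between strains, and a gene separated by strain correlates with any other so separated.

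Markers of the cell types of the vessel wall gave the setting for these levels. Smooth muscle markers (8 genes tested, among them Myh11 and Tagln) lay at a mean of 9.22, 9.44 and 9.54 on the SHR arrays and at 9.36, 9.47 and 9.53 on the WKY arrays. Endothelial markers lay at 5.89, 4.55 and 3.95 in SHR and at 5.88, 5.28 and 5.16 in WKY, with all 8 genes tested lower on average in SHR, and 0 passing. Fibroblast markers lay at 8.62, 7.91 and 7.21 in SHR and at 8.38, 8.31 and 8.03 in WKY. Macrophage markers lay at 5.81, 4.45 and 3.67 in SHR and at 5.20, 4.32 and 4.41 in WKY. White adipocyte markers (12 genes) lay at 7.48, 5.83 and 4.34 in SHR and at 7.47, 6.04 and 6.13 in WKY, all 12 lower on average in SHR. Genes lower in SHR numbered 4 of 8 for smooth muscle, 8 of 10 for fibroblast, 6 of 10 for macrophage and 1 of 8 for lymphocyte markers. For brown adipocyte and striated muscle markers they numbered 6 of 8 each, and for nerve markers 1 of 7. Of all 21659 tested probe sets, 11257 were below 0. Erythroid markers (Hbb-b1 and Slc4a1 tested) lay at 3.06, 2.43 and 2.02 in SHR and at 2.79, 3.77 and 3.32 in WKY, both genes lower on average in SHR. Slc4a1 was below the array medians on all 6 arrays, at 1.23 to 1.65, so the course of the erythroid mean is that of Hbb-b1. The mean of the lymphocyte markers was below the array medians, between 1.59 and 1.80 on all 6 arrays. Some of these genes rose above the median on single arrays, such as Cd79a at 2.96 on WKY replicate 3. Within SHR, replicate 1 was highest and replicate 3 lowest in endothelial, fibroblast, macrophage and white adipocyte markers. Lymphocyte, erythroid, brown adipocyte and nerve markers had the same order, and smooth muscle and striated muscle markers the reverse. Of the phosphodiesterases, Pde1b and Pde3b had the same order, and Pde1a, Pde3a and Pde5a the reverse.

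Over the 6 arrays Pde3b correlated with the white adipocyte mean at a Pearson r of 0.86 (exact permutation p = 0.0319) and a Spearman rho of 0.77 (exact permutation p = 0.103), and r was 0.80 without the 2 arrays farthest from the median of the markers. With the macrophage mean its r was 0.96 (exact permutation p = 0.00417) and rho 0.94 (exact permutation p = 0.0167), with r at 0.70 without the 2 farthest arrays. With the smooth muscle mean its r was -0.99 (exact permutation p = 0.00139) and rho -1 (exact permutation p = 0.00278), each the smallest that the 720 pairings allow for these values, with r at -0.98 without the 2 farthest arrays. Of the 100 relations between 10 genes and 10 marker lists, 6 had an unadjusted p under 0.05 for r, and 0 passed the Benjamini-Hochberg adjustment (adjusted p for r of 0.667, 0.208 and 0.139 for the Pde3b relations; for rho 0.447, 0.447 and 0.278). The others of the 6 were those of Pde5a with lymphocyte, Pde1b with erythroid and Pde10a with endothelial markers. Pde5a had an r of -0.92 (exact permutation p = 0.0111, adjusted 0.370) and a rho of -0.83 (exact permutation p = 0.0583), with r at -0.66 without the 2 farthest arrays. The lymphocyte mean in that relation lay below the array medians on all 6 arrays. Pde1b had an r of 0.85 (exact permutation p = 0.0333, adjusted 0.667) and a rho of 0.83 (exact permutation p = 0.0583), with r at 0.52 without the 2 farthest arrays. Pde10a had an r of 0.84 (exact permutation p = 0.0444, adjusted 0.677) and a rho of 0.83 (exact permutation p = 0.0583), with r at 0.91 without the 2 farthest arrays. The adjusted p for rho was 0.447 for all 3. The pairings were permuted over all 6 arrays regardless of strain. A gene and a marker list that both differ between the strains can therefore correlate through that difference. When the white adipocyte mean was added to the fit, the differences of Pde1b, Pde4d, Pde4b and Pde5a were -0.77, -0.56, -0.42 and -0.45. That of Pde3b was 0.57, and none of these genes passed (limma adjusted p from 0.476 to 0.724). No other marker list was added to a fit, and the part of any cell type in these differences was not tested.

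**Figure D4:**
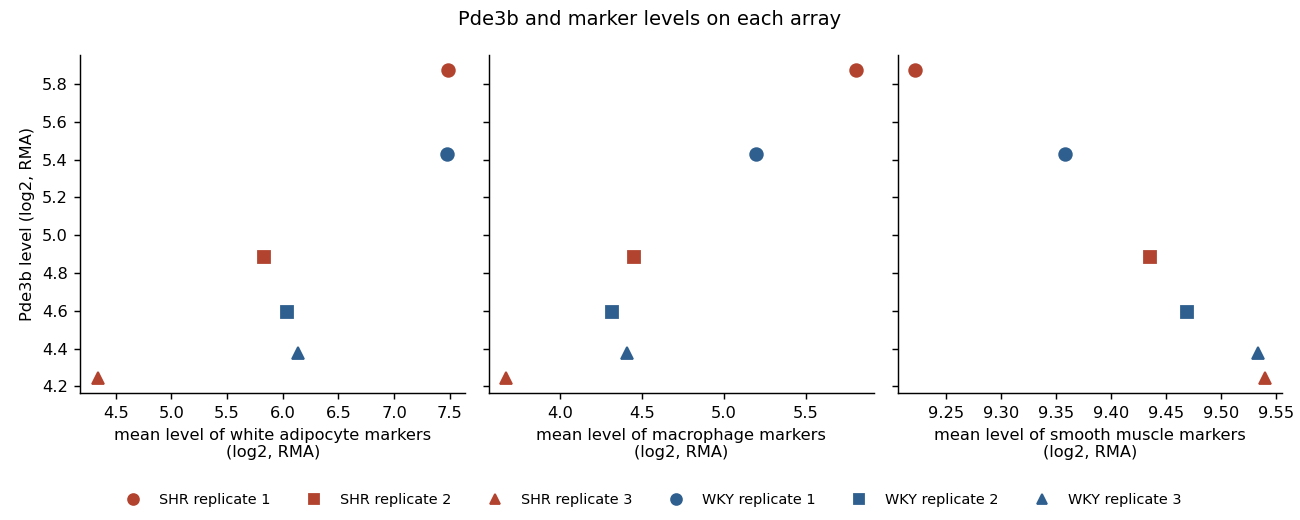
Level of Pde3b (log2, RMA) against the mean level of white adipocyte, macrophage and smooth muscle markers, 1 point per array, SHR and WKY in separate colours. Pde3b is highest on SHR replicate 1 and WKY replicate 1, the arrays with the highest adipocyte and macrophage markers and the lowest smooth muscle markers; the smooth muscle axis spans only 9.22 to 9.54.

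Other genes of cyclic nucleotide signalling were examined in 8 lists with 90 genes, of which 78 had a probe set naming them alone and 74 were tested. None passed (0 higher and 0 lower). At an unadjusted limma p under 0.05 there were 7 genes, 3 higher and 4 lower in SHR, beside 5.55% of all tested probe sets. The median difference was -0.02, close to the -0.01 of all tested probe sets, with 43 genes below 0 and 31 above. Genes below 0 numbered 8 of 11 for cyclic GMP synthesis, 7 of 11 for the other phosphodiesterases, 8 of 14 for cyclic GMP effectors, 5 of 11 for cyclic AMP synthesis, 8 of 16 for cyclic AMP effectors and 4 of 8 for anchors. Both export genes and the 1 calmodulin gene tested were below 0.

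Among the enzymes that make cyclic GMP, no subunit of soluble guanylyl cyclase, the receptor of nitric oxide, passed the test. Gucy1a1, the main alpha subunit in vascular smooth muscle, lay at 7.34, 7.28 and 7.58 in SHR and at 7.81, 7.96 and 7.74 in WKY, a difference of -0.43 (limma adjusted p = 0.818). Every SHR array was below every WKY array, as for Pde5a. Gucy1a2, the alternative alpha subunit, averaged 5.30 ± 0.32 in SHR and 4.58 ± 0.50 in WKY (SD, 3 arrays each), a difference of 0.72 (limma adjusted p = 0.882), and of 0.44 without WKY replicate 3, with the strains overlapping. The beta subunit genes Gucy1b1 and Gucy1b2 differed by -0.40 and -0.22 (limma adjusted p of 0.923 for both), also with overlap. Gucy1b2 lay at 1.52 to 1.70 in SHR and at 1.48 to 2.08 in WKY, all below the array medians. Nos2, the inducible nitric oxide synthase, lay at 1.57 to 1.63 in SHR and at 1.86 to 2.14 in WKY, all below the array medians. Kcnmb1, a subunit of the calcium-activated potassium channel that protein kinase G opens, lay at 10.54, 10.83 and 10.73 in SHR and at 10.15, 10.39 and 9.40 in WKY, a difference of 0.72 (limma adjusted p = 0.845), and of 0.43 without WKY replicate 3. Every SHR array was above every WKY array for Kcnmb1.

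On the cyclic AMP side, the adenylyl cyclase gene Adcy2 lay at 2.78, 2.74 and 2.72 in SHR and at 2.11, 2.26 and 2.31 in WKY (difference 0.52; limma adjusted p = 0.545). The strains did not overlap, and the WKY levels were not above the array medians. Adcy7, another adenylyl cyclase, averaged 4.68 ± 0.29 in SHR and 5.14 ± 0.20 in WKY (SD; difference -0.46; limma adjusted p = 0.899), with the strains overlapping. Of the effectors, Rapgef4, an exchange factor that cyclic AMP activates directly, differed by 0.61 and Crtc1, a coactivator of CREB, by -0.28 (limma adjusted p of 0.920 and 0.923). The strains overlapped for Rapgef4 and did not overlap for Crtc1. The difference of Rapgef4 was 0.36 without SHR replicate 3. Of the anchors, Akap7 differed by -0.27 and Akap12 by -0.37 (limma adjusted p of 0.923 for both), and Akap12 by -0.61 without SHR replicate 1 and by -0.21 without SHR replicate 3. The strains did not overlap for Akap7 and overlapped for Akap12. Abcc5, which exports cyclic nucleotides, lay at 3.72, 3.45 and 3.19 in SHR and at 4.10, 3.67 and 4.22 in WKY (difference -0.54; limma adjusted p = 0.876). Calm2, a calmodulin gene whose protein activates Pde1 enzymes, differed by -0.07 (95% interval from -0.57 to 0.44).

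Of the other phosphodiesterase genes 11 were tested, 0 passed and 0 had an unadjusted limma p under 0.05, with differences from -0.27 to 0.36. Those with the smallest p were Pde8a, a cyclic AMP enzyme, and Pde6d, a prenyl-binding protein named for its association with the retinal enzyme. Pde8a lay at 5.97, 5.95 and 6.06 in SHR and at 5.82, 5.90 and 5.17 in WKY, with a difference of 0.36, and of 0.14 without WKY replicate 3. Pde6d lay at 4.87, 5.09 and 4.96 in SHR and at 4.60, 4.85 and 4.57 in WKY, with a difference of 0.30 (limma adjusted p = 0.923 for both). For Pde8a and Pde6d every SHR array was above every WKY array, as in 6.48% of all tested probe sets.

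**Figure D5:**
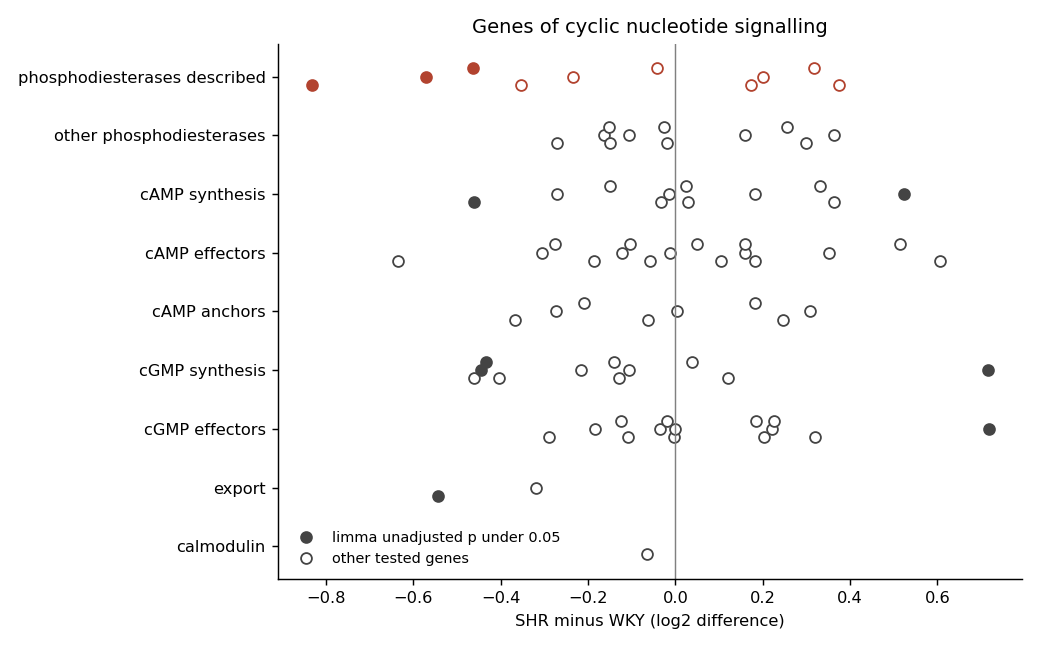
Difference of SHR minus WKY (log2) for the 10 phosphodiesterases (top, coloured) and for the tested genes of 8 further lists of cyclic nucleotide signalling, 1 point per gene; filled points have an unadjusted limma p under 0.05. No point passed after adjustment, and 3 of the 10 phosphodiesterases are filled, all below 0.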

How the data were processed

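The authors deposited 1 table of log2 values, 1 column per array and 1 row per probe set, which per the submitters' processing notes come from RMA, run with version 1.2.1 of Affymetrix Expression Console. Summarization level, annotation version and genome build are not given in these sources, and the log2 base follows from RMA and the range of values. Strain and replicate were taken from the sample titles. Platform annotation gave 1 symbol for 18511 probe sets, several for 575 and none for 9793. Of the 18511, 18394 were matched by Entrez identifier to RefSeq symbols of GRCr8.

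The 21659 probe sets with a mean at or above the 25th percentile (1.17) went into a limma fit (version 3.58.1, R 4.3.3; lmFit and eBayes, strain as the only term, two-sided tests), with p-values adjusted by Benjamini-Hochberg over all of them. The fit was tested on simulated data. Where a gene had several tested probe sets, the one with the highest mean was used. Named are all 10 phosphodiesterases, in each pathway list the genes at an unadjusted p under 0.05, or else the 2 smallest, and the 3 genes most correlated with each of 3 members. Members and lists were chosen with earlier results of these data known. Precision is limited by the number of arrays. Alternatives are given in the closing section.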

Additional observations from a re-analysis of the deposited data

How the results depend on the processing

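No phosphodiesterase and no gene of the 8 pathway lists passed under any of the alternatives run. The smallest limma adjusted p of a phosphodiesterase was 0.0558 (Pde1b with array weights, with a range up to 0.992 over its alternatives), and of a named pathway gene 0.145. Of the 10 phosphodiesterases 7 kept their sign under all alternatives, although Pde1a came to 0.00 without WKY replicate 3, and 3 did not. Pde1c turned to 0.0053 with median centring and 0.031 with the white adipocyte covariate, and ranged from -0.29 (without both SHR replicate 1 and WKY replicate 3) to 0.094 over the fits that left out arrays. Pde3b turned to -0.077 with array weights and to -0.45 without that pair of arrays, and ranged from -0.24 to 0.58 with 1 array left out. Pde7b turned to -0.15 and -0.36 in the same 2 settings and ranged from -0.11 to 0.64. Of the 14 named pathway genes only Calm2 turned, to 0.14 and 0.19 in those settings, with a range from -0.22 to 0.16. The cause was not tested. The count of all probe sets that passed, 15, was 3 with the replicate block, 65 with array weights, 115 without both SHR replicate 1 and WKY replicate 3, 30 at an adjusted p under 0.1, and from 2 to 5 with 1 array left out. Separated phosphodiesterases numbered 4 with a further quantile normalization, 3 with median centring, and from 4 to 7 with 1 array left out, the highest without SHR replicate 1. With fewer arrays, separation comes more easily for any gene. The share of all tested probe sets was not counted in these settings, so these numbers are not a result about the phosphodiesterases. Same-numbered arrays of the strains deviated from their strain means with correlations of 0.35, -0.08 and 0.23 for numbers 1 to 3, so the numbers were not taken to pair the samples; under the block the count of phosphodiesterases that passed stayed at 0, and SHR replicates 1 and 3, but not 2, correlated best with the array of their own number. Each gene rests on 1 probe set, signal over background is unknown, and Pde1c is not shown to lie above background.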

Other observations

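A pair of genes of the pathway lists, chosen after their values were seen, varied widely within the strains. Prkar2b, the regulatory subunit of protein kinase A that is abundant in fat, lay at 6.31, 5.03 and 3.95 on SHR replicates 1 to 3 and at 6.69, 4.87 and 5.64 on WKY replicates 1 to 3, with a difference of -0.64 (limma adjusted p = 0.923). Pde2a, a phosphodiesterase that cyclic GMP stimulates, lay at 5.66, 3.71 and 3.91 in SHR and at 4.95, 4.62 and 3.77 in WKY, with a difference of -0.02 (limma adjusted p = 0.998). For both genes the SD within SHR, 1.18 for Prkar2b and 1.07 for Pde2a, exceeded the difference between the strains.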
